A study of Homo sapiens with 10 samples.

Results

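This account follows 10 genes of neurons and neuroendocrine cells in DU145, a human cell line established from a prostate cancer that had spread to the brain: UCHL1, ENO2, DLL3, PEG10, SIAH2, L1CAM, REST, TUBB3, STMN1 and DPYSL3. They were taken by name from a list, and all 10 had a row among the 13527 features of the deposited expression table. RNA-seq compared 3 libraries of cells with a scramble control hairpin (shCon) with 3 libraries of cells with SOX4 knocked down by a short hairpin (shSOX4), with no further treatment in either group. The sources used here do not give how many hairpins were used or whether the lines are clones or pools. Another 4 libraries, ATAC-seq of SOX4-overexpressing and vector cells, were not analysed here. The series asks whether lowering SOX4, an HMG-box transcription factor related to SRY, represses neuroendocrine transdifferentiation.

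Neuroendocrine differentiation is the shift of prostate tumour cells from a luminal epithelial to a neuron-like secretory state. REST, a zinc finger repressor, binds RE1 elements of neuronal genes in non-neuronal cells and recruits histone deacetylases and demethylases, so that loss of REST releases neuronal genes. The other genes act at different levels. UCHL1 and ENO2 are enzymes abundant in neurons, DLL3 and L1CAM are surface proteins, TUBB3, STMN1 and DPYSL3 act on the cytoskeleton, and PEG10 and SIAH2 are linked to advanced prostate cancer.

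Levels are given as CPM, counts scaled to a common library size with TMM (trimmed mean of M values) factors. Log2 fold changes set shSOX4 against shCon, and a gene was called changed at a Benjamini-Hochberg adjusted p under 0.05 in edgeR's quasi-likelihood test over all features. The labels do not say whether the libraries stem from separate cultures, and p-values thus cover only the spread among these libraries. Libraries held 31189910 to 43361609 counts. On the second principal component, with 15.7% of the variance, shCon 3 and shSOX4 1 stood apart from the other 4 libraries, so results are also given without both. SOX4 itself measured 12.9, 10.1 and 8.48 CPM in shCon 1, 2 and 3 and 4.55, 6.44 and 6.01 CPM in shSOX4 1, 2 and 3. Its groups did not overlap, and 53.9% of the transcript remained (log2 fold change -0.89, SE 0.236, adjusted p = 0.0111, edgeR; 0.0598 without shCon 1). Of 8 epithelial markers 7 had a row, with KRT8 and KRT18, the simple-epithelium keratins, at 1828 ± 396 and 1113 ± 220 CPM (SD, 3 libraries each) in shCon, while CDH1, the epithelial cadherin, averaged 9.42 CPM. Of 10 markers of mature neurons only NEFL had a row, at 4.62 ± 0.698 CPM in shCon and 3.88 ± 0.614 CPM in shSOX4 (SD, 3 libraries each). Fewer cells of a type and less RNA per cell cannot be told apart in such bulk libraries.

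L1CAM rose 17.4-fold in shSOX4 cells and was the gene of the 10 that moved most. REST, the repressor, also rose, to 1.79-fold of its shCon level. UCHL1, DPYSL3 and SIAH2 fell, to 57.8%, 52.2% and 70.9% of their shCon levels. ENO2, DLL3, PEG10, TUBB3 and STMN1 did not pass the test. In all, 2 of the 10 genes rose and 3 fell. Over all features 32.8% were called in either direction, 17.0% up and 15.8% down, shares to set beside each list count below. The same 5 genes had groups that did not overlap, against 47.0% of all features (23.1% up and 23.9% down). The median log2 fold change of the 10 was -0.25, beside -0.01 over all features. Without shCon 2, without shCon 3 or without shSOX4 2 the number that rose was 1, and without both shCon 3 and shSOX4 1 it was 4. In that last fit 2890 features were called up, beside 2295 with all 6 libraries. The number that fell was 2, with SIAH2 lost, when any library other than shCon 3 was left out alone. Every one of the 10 was above 1 CPM in all 6 libraries, so none was in the table through 1 group alone.

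**Figure D1:**
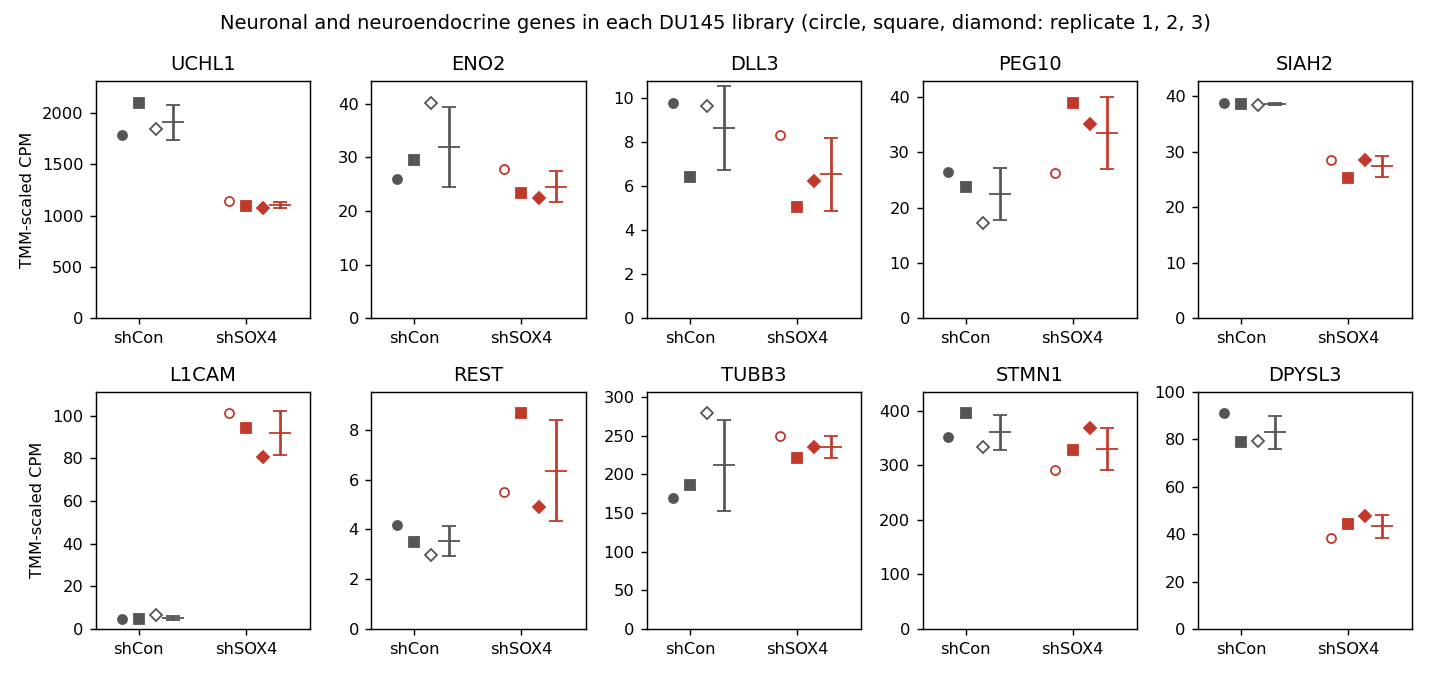
Each panel plots the TMM-scaled CPM of 1 gene in each of the 6 libraries (grey shCon, red shSOX4; circle, square and diamond for replicates 1, 2 and 3; open symbols for shCon 3 and shSOX4 1), with the group mean and SD (n = 3) to the right. L1CAM and REST have all shSOX4 points above all shCon points, UCHL1, SIAH2 and DPYSL3 have them below, and the other 5 panels overlap.

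RefSeq (GRCh38.p14) gave promoter sequence for 8 of the 10 genes, with 14 annotated starts. The 250 bases before each start are shown for L1CAM, UCHL1 and DPYSL3, the genes called under every alternative that was run. The window of L1CAM lies before the farther upstream of its annotated starts (chrX:153876015-153876264, minus strand), that of UCHL1 at chr4:41256678-41256927 (plus strand), and those of DPYSL3 at chr5:147510069-147510318 (start 1) and chr5:147453693-147453942 (start 2, both minus strand). Capitals mark matches on either strand to CAGCACC from the left part of the RE1 element and GGACAG from its right part, to ACAAAG or its variant ACAAT as SOX core letters, to a TATA box (TATAAA), to a GC box (GGGCGG) and to an E-box (CAGCTG).
L1CAM: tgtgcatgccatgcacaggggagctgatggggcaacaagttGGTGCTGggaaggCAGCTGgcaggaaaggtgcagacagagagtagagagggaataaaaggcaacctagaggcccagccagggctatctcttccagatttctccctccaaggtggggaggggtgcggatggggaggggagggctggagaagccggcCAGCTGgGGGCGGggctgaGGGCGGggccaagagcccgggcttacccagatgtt
UCHL1: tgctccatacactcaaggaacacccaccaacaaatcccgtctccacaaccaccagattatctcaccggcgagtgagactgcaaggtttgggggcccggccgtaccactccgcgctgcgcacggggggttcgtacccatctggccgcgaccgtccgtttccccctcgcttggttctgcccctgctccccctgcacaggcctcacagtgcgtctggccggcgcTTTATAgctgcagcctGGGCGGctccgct
DPYSL3 start 1: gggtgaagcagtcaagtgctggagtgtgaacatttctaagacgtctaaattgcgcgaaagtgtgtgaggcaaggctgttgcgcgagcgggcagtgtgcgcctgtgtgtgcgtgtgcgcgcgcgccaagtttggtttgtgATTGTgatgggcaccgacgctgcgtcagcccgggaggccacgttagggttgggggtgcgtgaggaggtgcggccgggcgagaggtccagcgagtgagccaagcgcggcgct
DPYSL3 start 2: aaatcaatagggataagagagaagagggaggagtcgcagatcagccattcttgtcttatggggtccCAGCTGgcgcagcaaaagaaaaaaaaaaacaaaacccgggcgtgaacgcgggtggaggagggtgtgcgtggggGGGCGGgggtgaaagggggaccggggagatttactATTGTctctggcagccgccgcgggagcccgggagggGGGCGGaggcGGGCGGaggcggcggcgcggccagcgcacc

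The L1CAM window held 5 CpG dinucleotides and the UCHL1 window 20, against a median of 11 over 35116 windows of the same length. DPYSL3 had 25 and 21. The L1CAM window has the left RE1 letters CAGCACC 209 to 203 bases before the start, a match found in 6.16% of all windows, and none of the right letters GGACAG (17.2% of windows). It also holds 2 E-boxes (14.0%) and 2 GC boxes (42.6%). The overlapping window before the other L1CAM start (chrX:153875945-153876194, minus strand), not printed, has 8 CpG dinucleotides, 2 GC boxes and 1 E-box, and none of the RE1 letters searched. UCHL1 has a TATA box 29 to 24 bases before its start (10.7%) and a GC box. Both DPYSL3 windows hold ACAAT once (24.6%), and neither holds ACAAAG (13.7%). No match in the printed windows overlaps another, and a match is a description of letters, not a measured site. The counts do not tell the starts of a gene apart.

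UCHL1 (ENSG00000154277), a ubiquitin C-terminal hydrolase that makes up a sizeable part of neuronal protein, was the most abundant of the 10 per length. It measured 1785, 2103 and 1841 CPM in shCon 1, 2 and 3 and 1141, 1094 and 1079 CPM in shSOX4 1, 2 and 3. The shSOX4 libraries lay close together, with a coefficient of variation of 2.92% against 8.90% in shCon, and all 3 were below every shCon library. The log2 fold change was -0.79 (SE 0.139, 95% interval -1.09 to -0.49, adjusted p = 0.000903, edgeR), and it was -0.84 to -0.71 when 1 library was left out, called each time. By mean FPKM, the authors' value scaled for transcript length and depth, UCHL1 ranked 55th of the 13527 features in shCon and 113th in shSOX4.

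No other ubiquitin C-terminal hydrolase was called down. UCHL3, its closest relative, went from 15.9 ± 1.72 to 24.0 ± 2.72 CPM (SD, 3 libraries each) and rose by 0.59 on the log2 scale (adjusted p = 0.0269, edgeR). It was not called without shCon 1 (adjusted p = 0.0647), shCon 2 (0.0523), shCon 3 (0.0522), shSOX4 2 (0.101) or shSOX4 3 (0.0993, edgeR). UCHL5, a proteasome-bound hydrolase, had a value of 0.48 (adjusted p = 0.0763, edgeR) and BAP1, a nuclear tumour suppressor, -0.36 (adjusted p = 0.112, edgeR). Of this family of 4, 1 gene rose and 1 fell, with a median of 0.06. The number up was 0 in the 5 fits just named and 2 without shSOX4 1, left out alone or together with shCon 3, where 2 fell. UCHL1 held 95.6 ± 0.407% of the family's summed FPKM in shCon and 92.5 ± 0.207% in shSOX4 (SD, 3 libraries each), and the shares did not overlap between the groups.

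ENO2 (ENSG00000111674), neuron-specific enolase, is the neuronal form of the glycolytic enzyme that makes phosphoenolpyruvate. It measured 25.9, 29.5 and 40.2 CPM in shCon 1, 2 and 3 and 27.8, 23.4 and 22.4 CPM in shSOX4 1, 2 and 3. The groups overlapped, since shSOX4 1 was above shCon 1. On the log2 scale the change was -0.38 (SE 0.204, 95% interval -0.81 to 0.06, adjusted p = 0.167, edgeR). shCon 3, which stands apart, exceeded the other shCon libraries by 0.54 on the log2 scale, and without it the value was -0.17 (adjusted p = 0.505, edgeR). ENO1, the ubiquitous enolase, was far more abundant, with 3068 ± 410 FPKM against 12.0 ± 2.1 for ENO2 in shCon (SD, 3 libraries each), and ENO1 fell by 0.49 (adjusted p = 0.0230, edgeR). ENO1 no longer passed without shCon 2 (adjusted p = 0.0520), shCon 3 (0.0573), shSOX4 2 (0.0800) or shSOX4 3 (0.0549, edgeR), which leaves 0 enolases down in those fits. ENO3, the muscle enolase, had a value of 0.52 (adjusted p = 0.0997, edgeR; 0.0253 without shSOX4 3). ENO2 made up 0.386 ± 0.0165% of the summed enolase FPKM in shCon and 0.426 ± 0.0531% in shSOX4 (SD, 3 libraries each), with overlapping groups. Of 3 enolases with a row none rose and 1 fell, with a median of -0.38.

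**Figure D2:**
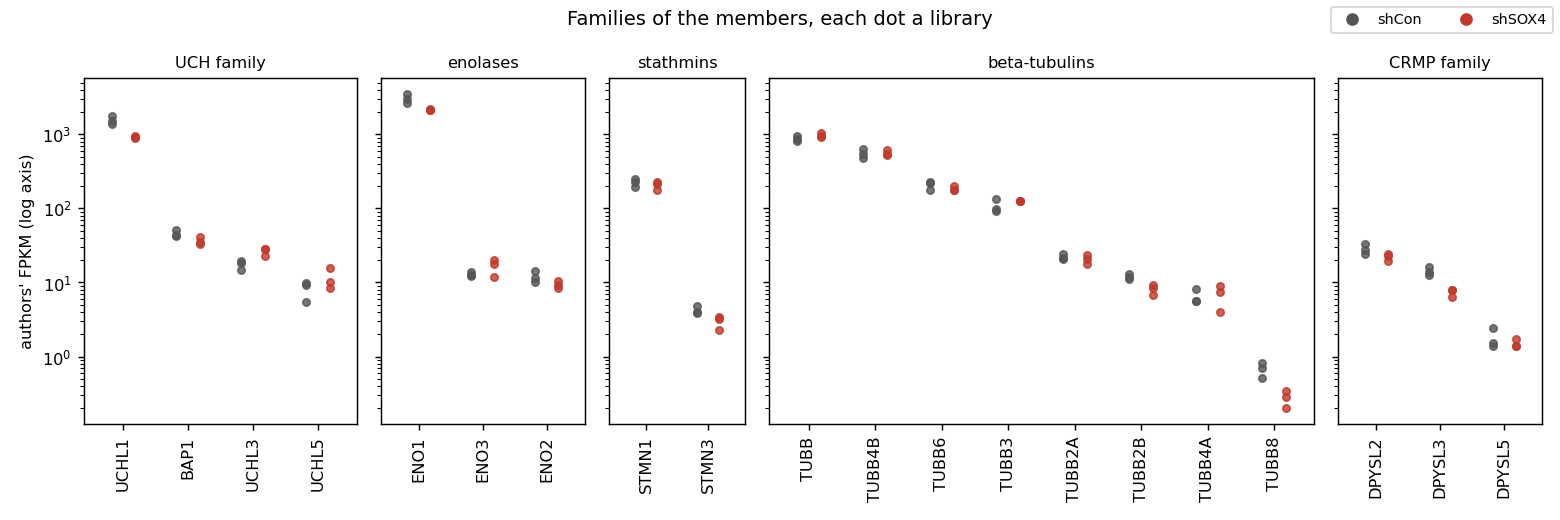
The authors' FPKM on a log axis is plotted for every measured gene of the families of UCHL1, ENO2, STMN1, TUBB3 and DPYSL3, with a dot for each library (grey shCon, red shSOX4; n = 3 each). UCHL1 and STMN1 lie far above their relatives, whereas ENO2 lies more than 2 orders of magnitude below ENO1 and TUBB3 lies below TUBB, TUBB4B and TUBB6.

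DLL3 (ENSG00000090932), an inhibitory Notch ligand and a surface marker of neuroendocrine carcinoma, had low levels of 9.79, 6.42 and 9.65 CPM in shCon 1, 2 and 3 and 8.30, 5.04 and 6.25 CPM in shSOX4 1, 2 and 3. The groups overlapped, with shSOX4 1 above shCon 2. The log2 fold change was -0.40 (SE 0.252, 95% interval -0.94 to 0.14, adjusted p = 0.235, edgeR), and -0.52 without both shCon 3 and shSOX4 1 (adjusted p = 0.113, edgeR). Of 15 measured Notch ligands, receptors and targets 1 rose and 1 fell, with a median of -0.15. NOTCH2, a receptor, rose by 1.05 (adjusted p = 0.00144, edgeR), and HES6, a basic helix-loop-helix factor that promotes neuronal differentiation, went from 19.3 ± 3.74 to 10.6 ± 2.15 CPM (SD, 3 libraries each) and fell by 0.87 (adjusted p = 0.00860, edgeR). HEYL and HES4, Notch target genes, had values of -0.62 (adjusted p = 0.0610, edgeR) and -0.74 (adjusted p = 0.0618, edgeR). The number of Notch genes down was 2 without shCon 1 or shSOX4 2, 3 without shCon 2, and 4 without shSOX4 1. Omitting shCon 3 together with shSOX4 1 gave 3 down and 2 up.

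L1CAM (ENSG00000198910), the founding member of the L1 family, is a neural adhesion molecule that guides axons and is found at the invasive edge of some carcinomas. It measured 4.67, 4.86 and 6.33 CPM in shCon 1, 2 and 3, and 101, 94.3 and 80.8 CPM in shSOX4 1, 2 and 3. The lowest shSOX4 library was more than 10 times the highest shCon library. In edgeR the log2 fold change was 4.12 (SE 0.21, 95% interval 3.67 to 4.57, adjusted p = 2.05e-08, edgeR), with a fold between 12.8 and 23.8 at the ends of that interval. The counts behind it were 181 to 217 in a shCon library and 2715 to 3447 in a shSOX4 library. Per length it went from 0.973 ± 0.0972 to 17.6 ± 2.17 FPKM (SD, 3 libraries each), from rank 11096 to rank 3592.

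Among 14 measured L1 family genes and their partners, 3 rose and none fell, with a median of 0.12, L1CAM among the 3. With L1CAM left out 2 of 13 rose, beside 17.0% of all features called up and 15.8% called down. NRCAM, another neural adhesion molecule of the family, had 39 counts over the 3 shCon libraries and reached 3.85 ± 1.29 CPM in shSOX4 (SD, n = 3), a log2 fold change of 3.52 (adjusted p = 1.7e-05, edgeR). It passed the table's filter through the shSOX4 group alone, so it could have entered only as a rise. ITGAV, the integrin chain of receptors that can bind L1CAM, rose from 7.61 to 16.5 CPM in the mean (adjusted p = 0.00134, edgeR). ADAM10, a protease that sheds L1CAM, had a value of 0.48 (adjusted p = 0.0606, edgeR), and NUMB, an endocytic adaptor, -0.27 (adjusted p = 0.246, edgeR). Markers of cell types that can express L1CAM were also read. Of 10 neuron markers 1 had a row and summed to 0.903 to 1.13 FPKM in shCon and 0.708 to 1.03 FPKM in shSOX4, and of 6 Schwann and glial markers 3 had a row, 2 of which fell, with sums of 7.69 to 10.9 and 4.36 to 5.05 FPKM. Markers of fibroblasts (3 of 8 with a row, all 3 up) and endothelium (1 of 5, up) summed to 0.266 to 0.464 and 0.106 to 0.220 FPKM in shCon and to 2.27 to 3.61 and 1.21 to 1.76 FPKM in shSOX4. LUM among the fibroblast markers and CDH5, the endothelial one, passed the table's filter through shSOX4 alone and could have entered only as rises. PDGFRB, a fibroblast marker at 0.416, 1.05 and 0.612 CPM in shCon 1, 2 and 3, also reached 1 CPM in 3 libraries only with those of shSOX4. The part of these markers in the rise of L1CAM was not tested. An antisense gene, L1CAM-AS1, overlaps L1CAM, and the sources used here do not give the strand setting of the counting, so reads of the pair cannot be told apart.

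**Figure D3:**
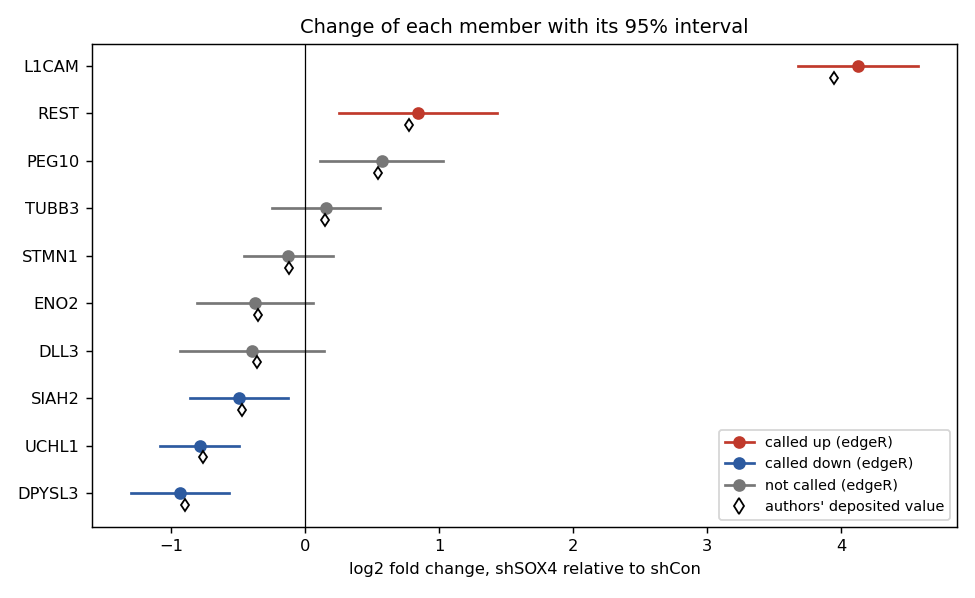
Points give the log2 fold change of each gene in shSOX4 relative to shCon from edgeR with its 95% interval (red called up, blue called down, grey not called), and open diamonds give the value of the authors' deposited table. The interval of L1CAM runs from 3.67 to 4.57, clear of all others, and those of TUBB3, STMN1, ENO2 and DLL3 include 0.

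REST (ENSG00000084093) had the lowest level of the 10 per length. It measured 4.16, 3.49 and 2.97 CPM in shCon 1, 2 and 3 and 5.51, 8.67 and 4.88 CPM in shSOX4 1, 2 and 3. All shSOX4 libraries were above all shCon libraries, and shSOX4 2 stood well above the other 2. The log2 fold change was 0.84 (SE 0.276, 95% interval 0.25 to 1.43, adjusted p = 0.0312, edgeR). The call was lost without shSOX4 2 (0.55, adjusted p = 0.206), shCon 2 (0.83, adjusted p = 0.0697) or shCon 3 (0.73, adjusted p = 0.0789, edgeR), and under total-count scaling (adjusted p = 0.0574, edgeR). These values rest on 102 to 280 counts a library.

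All 26 listed genes of REST and its partners had a row, of which 3 rose and 4 fell, with a median of -0.09. SMARCA4, the ATPase of SWI/SNF remodelling complexes, went from 16.6 ± 1.17 to 43.8 ± 3.36 CPM (SD, 3 libraries each) and rose by 1.40 on the log2 scale (adjusted p = 6.6e-05, edgeR). HMG20B, a subunit of the complex of CoREST and the demethylase LSD1, fell from 425 ± 68.9 to 214 ± 56.3 CPM (log2 fold change -0.99, adjusted p = 0.00198, edgeR). The corepressor gene CTBP1 fell by 0.61 (adjusted p = 0.0118, edgeR; 0.0804 without shSOX4 2) and MED12, a Mediator subunit, rose by 0.64 (adjusted p = 0.0205, edgeR), though not without shCon 2 (adjusted p = 0.0897), shSOX4 1 (0.0596) or shSOX4 2 (0.0787, edgeR). CTBP2, the paralog of CTBP1, fell by 0.51 (adjusted p = 0.0349, edgeR) and CTDSP2, a small phosphatase recruited by REST, by 0.43 (adjusted p = 0.0412, edgeR). These 2 lie outside the rule for named genes and were chosen after their values were seen, to complete the count. CTDSP2 was lost in each fit that left out 1 library, CTBP2 in 4 of 6. The number up was 1 without shCon 2 or shSOX4 2, and the number down was 1 without shSOX4 2. Of 13 genes of REST protein turnover and splicing, 2 rose and 2 fell, with a median of 0.14. USP15, a deubiquitinase that acts on newly made REST, rose by 1.62 (adjusted p = 0.000215, edgeR), and the chaperone gene HSP90AA1 by 1.02 (adjusted p = 0.000896, edgeR). The casein kinase 1 genes CSNK1E and CSNK1D fell by 0.93 (adjusted p = 0.000687, edgeR) and 0.53 (adjusted p = 0.0204, edgeR), the latter not without shSOX4 2 (0.112) or shSOX4 3 (adjusted p = 0.0619, edgeR). The number up in turnover was 4 without shSOX4 1, alone or with shCon 3, while 1 fell when shSOX4 2 or shSOX4 3 was omitted.

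Of 43 neuronal genes that REST represses in other cell types, 19 had a row, and the other 24 were not analysed here. Among the 19, 2 rose and 5 fell, with a median of -0.25. Besides L1CAM the gene that rose was NEFH, the heavy neurofilament chain, which went from 0.463 ± 0.336 to 5.29 ± 0.798 CPM (SD, 3 libraries each; log2 fold change 3.53, adjusted p = 4.1e-05, edgeR) and was in the table through shSOX4 alone. NEFM, the medium neurofilament chain, fell by 1.19 (adjusted p = 0.00720, edgeR) and GRIN1, a glutamate receptor subunit at 2.02 CPM in shCon, by 1.24 (adjusted p = 0.0261, edgeR). In shSOX4 1, 2 and 3 GRIN1 measured 1.23, 0.774 and 0.536 CPM, so it reached 1 CPM in 3 libraries only with those of shCon. GRIN1 no longer passed without shCon 3 (adjusted p = 0.0873), shSOX4 2 (0.0869) or shSOX4 3 (0.106, edgeR). MAPK8IP1, a scaffold of the JNK pathway, fell by 0.60 (adjusted p = 0.0403, edgeR) and KCNH2, a potassium channel, by 0.94 (adjusted p = 0.0413, edgeR), both chosen after their values were seen. Without each of the same 3 libraries the number of these neuronal genes that fell was 2.

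TUBB3 (ENSG00000258947), class III beta-tubulin, is the isotype used to mark neurons. It measured 170, 187 and 279 CPM in shCon 1, 2 and 3 and 249, 221 and 236 CPM in shSOX4 1, 2 and 3. shCon 3 was the highest of all 6 libraries and the other shCon libraries the lowest, so the groups overlapped and the coefficient of variation was 27.8% in shCon against 6.02% in shSOX4. This gave a log2 fold change of 0.15 (SE 0.188, 95% interval -0.25 to 0.55, adjusted p = 0.558, edgeR). Omitting shCon 3 gave 0.40 (adjusted p = 0.0535, edgeR), and omitting shSOX4 1 as well gave 0.36, which passed (adjusted p = 0.0354, edgeR).

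Of 8 beta-tubulin genes with a row none rose and 2 fell, with a median of -0.05. Per length TUBB (886 ± 71.2 FPKM in shCon), TUBB4B (554 ± 79.4) and TUBB6 (208 ± 27.7) were above TUBB3 (108 ± 24.2), and TUBB2A (21.9 ± 1.84), TUBB2B (12.1 ± 0.868) and TUBB4A (6.48 ± 1.44; SD, n = 3 each) were below it. TUBB3 held 5.99 ± 0.697% of their summed FPKM in shCon and 6.72 ± 0.451% in shSOX4 (SD, 3 libraries each), and the shares overlapped. TUBB2B fell by 0.57 (adjusted p = 0.0369, edgeR), though not without shCon 2 (adjusted p = 0.112), shCon 3 (0.0616) or shSOX4 2 (0.197, edgeR). TUBB8, at 1.53 CPM in shCon and in the table through that group alone, fell by 1.29 (adjusted p = 0.0194, edgeR; 0.0659 without shCon 2 and 0.0809 without shSOX4 3). The number of beta-tubulins down was 0 without shCon 2 and 1 without shCon 3, shSOX4 2 or shSOX4 3, and TUBB3 alone rose without both shCon 3 and shSOX4 1. TUBB, TUBB6, TUBB2A, TUBB4A and TUBB4B had values from -0.11 to 0.11 and did not pass. These isotypes are close in sequence, so how reads were divided among them is uncertain. Of 5 alpha-tubulins TUBA4A rose by 0.84 (adjusted p = 0.00292, edgeR) and none fell (median 0.22), while TUBA1B had a value of 0.32 (adjusted p = 0.134, edgeR), TUBA1C 0.22 (adjusted p = 0.31, edgeR) and TUBA1A 0.01 (adjusted p = 0.968, edgeR). TUBA1B also rose without shCon 3, which made 2, and with TUBA1C 3 alpha-tubulins rose without both shCon 3 and shSOX4 1.

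STMN1 (ENSG00000117632), stathmin, binds tubulin dimers and destabilises microtubules, in dividing cells as well as in neurons. It measured 353, 395 and 333 CPM in shCon 1, 2 and 3 and 292, 329 and 369 CPM in shSOX4 1, 2 and 3. The libraries of the groups were interleaved. On the log2 scale the value was -0.13 (SE 0.156, 95% interval -0.46 to 0.20, adjusted p = 0.553, edgeR), and it lay between -0.21 and -0.04 when 1 library was left out. That interval allows a level from 0.726 to 1.15 times that of shCon. STMN3, the neuronal relative and the only other stathmin with a row, had a value of -0.50 (adjusted p = 0.125, edgeR), though its groups did not overlap. STMN1 held 98.1 ± 0.458% of the summed stathmin FPKM in shCon and 98.6 ± 0.37% in shSOX4 (SD, 3 libraries each). None of the 2 stathmins passed, and their median was -0.31.

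DPYSL3 (ENSG00000113657), also known as CRMP4, is a cytosolic phosphoprotein of growth cones that bundles actin and binds tubulin. It measured 91.1, 78.7 and 79.4 CPM in shCon 1, 2 and 3 and 38.3, 44.1 and 47.9 CPM in shSOX4 1, 2 and 3. Every shSOX4 library was below every shCon library by a wide margin. In edgeR the log2 fold change was -0.94 (SE 0.17, 95% interval -1.3 to -0.57, adjusted p = 0.00111, edgeR), and it stayed called when each library was left out, at -0.84 or lower. STK32A, a kinase gene that overlaps DPYSL3 in RefSeq, was much lower, at 1.95 ± 0.413 CPM in shCon and 1.65 ± 0.468 CPM in shSOX4 (SD, 3 libraries each).

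DPYSL2, the most abundant CRMP gene per length, had a value of -0.36 (95% interval -0.70 to -0.02, adjusted p = 0.0958, edgeR; 0.0162 without both shCon 3 and shSOX4 1, where 2 CRMP genes fell), and DPYSL5 -0.14 (adjusted p = 0.681, edgeR). DPYSL3 held 32 ± 0.239% of the summed CRMP FPKM in shCon and 24.0 ± 3.62% in shSOX4 (SD, 3 libraries each), and the shares did not overlap. Of 3 CRMP genes with a row none rose and 1 fell, with a median of -0.36. Of 20 other growth cone and axon growth genes measured, 2 rose and 3 fell, with a median of 0.00. MARCKS and BASP1, related membrane-bound proteins of the growth cone, rose by 2.35 (adjusted p = 4.3e-06, edgeR) and 1.01 (adjusted p = 0.000301, edgeR), and BASP1 reached 285 ± 17.9 CPM (SD, n = 3). RTN4R, a receptor for myelin inhibitors, fell by 0.86 (adjusted p = 0.0105, edgeR; 0.0601 without shSOX4 2) and VASP, an actin polymerase, by 0.61 (adjusted p = 0.0125, edgeR; 0.0767 without shSOX4 2 and 0.0522 without shSOX4 3). EVL, a relative of VASP chosen after its value was seen, fell by 0.66 (adjusted p = 0.0240, edgeR), and not without shCon 3 (0.0686), shSOX4 2 (0.101) or shSOX4 3 (adjusted p = 0.101, edgeR). Leaving out shSOX4 2 gave 0 down and leaving out shSOX4 3 gave 1, while 5 fell and 4 rose with shCon 3 and shSOX4 1 both omitted.

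Microtubule-associated and neurofilament genes had calls in both directions, 5 of 14 up and 2 down, with a median of -0.12. Over all features 17.0% were called up and 15.8% down. NEFH, among those up, was in the table through shSOX4 alone and could have entered only as a rise. MAP7, a kinesin-recruiting microtubule protein of epithelia, rose from 2.26 ± 0.577 to 11.3 ± 2.09 CPM (SD, 3 libraries each; log2 fold change 2.31, adjusted p = 2.3e-05, edgeR), and CAMSAP2, which caps microtubule minus ends, rose by 0.94 (adjusted p = 0.00458, edgeR). Among neuronal intermediate filaments NEFH rose, as given above, while PRPH, peripherin, fell from 9.07 ± 1.58 to 3.53 ± 1.07 CPM (log2 fold change -1.36, adjusted p = 0.0021, edgeR) and NEFM fell. INA, alpha-internexin, rose by 1.16 (adjusted p = 0.0133, edgeR; 0.087 without shSOX4 2) and MAP1B, a microtubule-associated protein of growing axons, by 0.67 (adjusted p = 0.0231, edgeR; 0.172 without shSOX4 2), both chosen after their values were seen. Without shSOX4 2 the number up was 3.

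**Figure D4:**
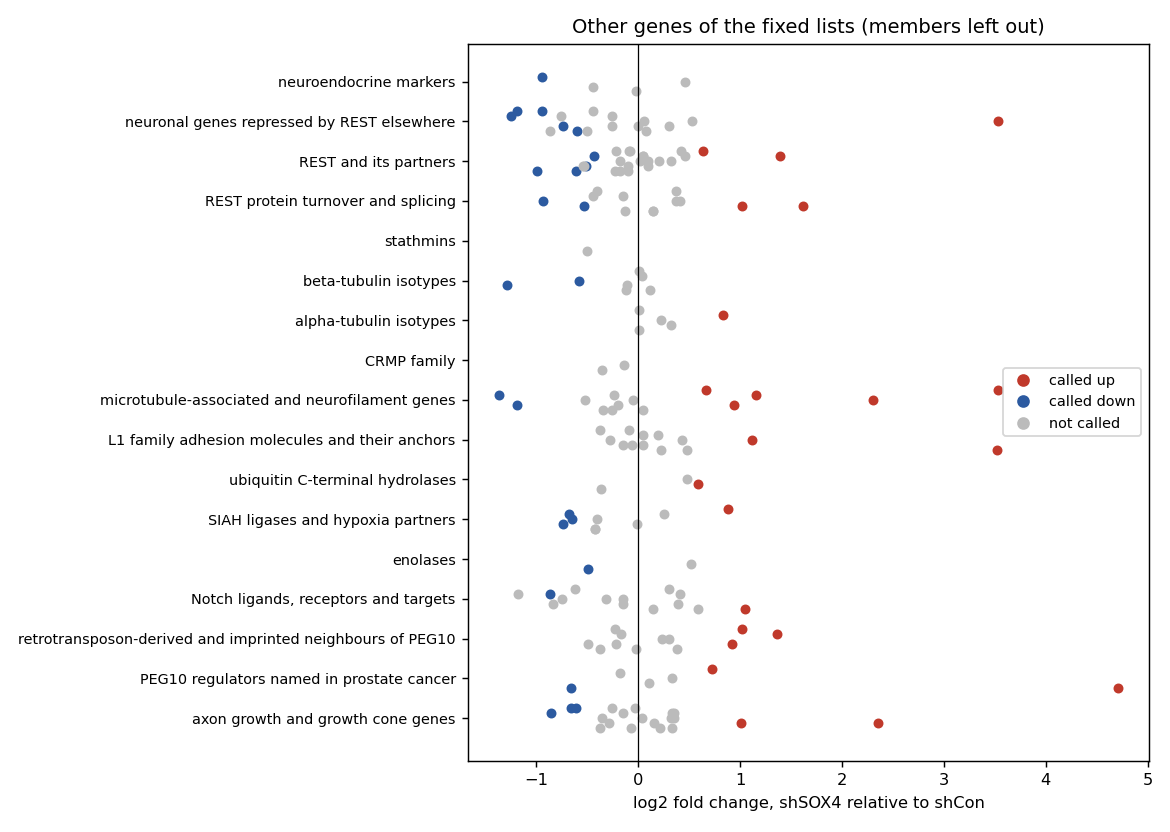
Each dot is the log2 fold change in shSOX4 relative to shCon of 1 gene of the named list, with the 10 main genes left out (red called up, blue called down, grey not called). Of the 160 genes 22 rose and 24 fell.

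PEG10 (ENSG00000242265) derives from a retrotransposon, is expressed from the paternal allele and promotes growth of neuroendocrine prostate tumours. It measured 26.5, 23.8 and 17.3 CPM in shCon 1, 2 and 3 and 26.3, 39.0 and 35.1 CPM in shSOX4 1, 2 and 3. The groups overlapped by a narrow margin, since shSOX4 1 was just below shCon 1. This gave a log2 fold change of 0.57 (SE 0.214, 95% interval 0.11 to 1.03, adjusted p = 0.0538, edgeR). PEG10 passed when shCon 1 (0.70, adjusted p = 0.045), shSOX4 1 (0.73, adjusted p = 0.013) or both shCon 3 and shSOX4 1 (0.56, adjusted p = 0.0074, edgeR) were omitted, and also by DESeq2 (adjusted p = 0.0262). The 2 libraries that stand apart were the lowest of their groups, by 0.54 in shCon 3 and 0.49 in shSOX4 1 on the log2 scale.

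SGCE, the sarcoglycan gene whose start lies head to head with that of PEG10 and which is imprinted alike, measured 39.2, 32.1 and 22.0 CPM in shCon 1, 2 and 3 and 30.0, 43.8 and 47.9 CPM in shSOX4 1, 2 and 3. The same libraries, shCon 3 and shSOX4 1, were the lowest of their groups for SGCE, whose value was 0.38 (adjusted p = 0.223, edgeR). This is not particular to PEG10 and SGCE. In AURKA and CAP1, genes of other lists, these libraries were also the lowest of their groups, while in TUBB3 they were the highest. SGCE was chosen after its values were seen. Of 13 measured genes that neighbour PEG10 or derive from retrotransposons, 3 rose and none fell, with a median of 0.24. RTL8B, a retrotransposon Gag-like gene, rose by 1.36 (adjusted p = 0.00255, edgeR), but it has near-identical copies, so its reads are uncertain. TFPI2, a protease inhibitor, rose from 15.2 ± 2.21 to 28.8 ± 1.89 CPM (SD, 3 libraries each; adjusted p = 0.00258, edgeR). PPP1R9A, a neuronal scaffold of protein phosphatase 1, rose by 1.02 (adjusted p = 0.0219, edgeR), lost without shCon 1 (adjusted p = 0.0568), shCon 3 (0.0544) or shSOX4 2 (0.0994, edgeR). LDOC1 had a value of -0.49 (adjusted p = 0.0518, edgeR) and fell without shSOX4 1, alone or with shCon 3. Of genes linked to PEG10 control in prostate cancer, the cell cycle repressor gene RB1 rose by 0.73 (adjusted p = 0.0183, edgeR; 0.0529 without shCon 2 and 0.0921 without shSOX4 2), and E2F3, a cell cycle transcription factor, had a value of 0.34 (adjusted p = 0.267, edgeR).

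SIAH2 (ENSG00000181788) is a RING ubiquitin ligase that degrades prolyl hydroxylases and the corepressor NCOR1 and so acts in hypoxia signalling. It measured 38.8, 38.6 and 38.4 CPM in shCon 1, 2 and 3 and 28.4, 25.2 and 28.5 CPM in shSOX4 1, 2 and 3. The shCon libraries were nearly equal, with a coefficient of variation of 0.546%, and all shSOX4 libraries were below them. The log2 fold change was -0.50 (SE 0.17, 95% interval -0.86 to -0.13, adjusted p = 0.0373, edgeR). The size stayed between -0.52 and -0.44 when 1 library was left out, but SIAH2 no longer passed without shCon 1 (adjusted p = 0.0854), shCon 2 (0.116), shSOX4 1 (0.0572), shSOX4 2 (0.167) or shSOX4 3 (0.0818, edgeR).

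Of 10 measured SIAH ligases and hypoxia partners 1 rose and 4 fell, SIAH2 itself among the 4, with a median of -0.42. Over all features 17.0% were called up and 15.8% down. VHL, the ligase subunit for HIF, fell from 40.7 ± 2.49 to 25.4 ± 2.62 CPM (SD, 3 libraries each; log2 fold change -0.68, adjusted p = 0.0101, edgeR; 0.0698 without shSOX4 2). SPRY2, a SIAH2 substrate that inhibits receptor tyrosine kinase signalling, fell by 0.73 (adjusted p = 0.0195, edgeR) and the prolyl hydroxylase gene EGLN3 by 0.65 (adjusted p = 0.0335, edgeR). NCOR1 rose by 0.89 (adjusted p = 0.0114, edgeR; 0.0765 without shSOX4 2, where none rose). SPRY2 was lost without shCon 1 (0.0712), shCon 2 (0.0649) or shSOX4 1 (adjusted p = 0.0562, edgeR), and EGLN3 without any single library except shCon 3 (adjusted p of 0.0603 to 0.119, edgeR). Omitting shCon 1, shCon 2, shSOX4 1 or shSOX4 2 left 1 gene down, and omitting shSOX4 3 left 2. Without shCon 3, alone or together with shSOX4 1, 5 fell. SIAH2-AS1, an antisense gene, overlaps SIAH2.

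Set against the wider list of 34 neuroendocrine markers, 9 had a row and 25 were not analysed here. None of the 9 rose and 3 fell, with a median of -0.40, against 15.8% of all features called down. Of the 9, however, 5 are among the 10 genes, with UCHL1 and SIAH2 among those that fell, and their values add nothing new here. Of the 4 other markers none rose, 1 fell and 3 were not called. The remaining fall was that of NKX2-1, a homeobox factor of lung and neuroendocrine tumours, which went from 54.0 ± 7.49 to 28.1 ± 2.34 CPM (SD, 3 libraries each; log2 fold change -0.94, adjusted p = 0.00162, edgeR) and was called in each of the 6 fits that left out 1 library. EZH2, the methyltransferase of Polycomb complexes, had a value of 0.46 (adjusted p = 0.125, edgeR; 0.0139 without shSOX4 1), CELSR3, a neuronal cadherin, -0.44 (adjusted p = 0.185, edgeR), and AURKA, a mitotic kinase, -0.02 (adjusted p = 0.961, edgeR). The number of markers up was 1 without shCon 1 and 2 without shSOX4 1, left out alone or with shCon 3. Over all 17 lists together, 160 genes other than the 10 had a row, and 46 of them were called, 28.7% against 32.8% of all features.

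Per length, the order of the 10 in shCon by mean FPKM was UCHL1 (1563 ± 192), STMN1 (225 ± 28.7), TUBB3 (108 ± 24.2), SIAH2 (14.3 ± 0.932), DPYSL3 (14.2 ± 1.81), ENO2 (12.0 ± 2.1), DLL3 (3.75 ± 0.836), PEG10 (3.19 ± 0.834), L1CAM (0.973 ± 0.0972) and REST (0.453 ± 0.0995; SD, n = 3 each). SIAH2, DPYSL3 and ENO2 lay within their spread of each other, as did DLL3 and PEG10. In shSOX4 the FPKM of L1CAM, 17.6 ± 2.17, was above those of SIAH2 (10.2 ± 0.225), ENO2 (9.37 ± 1.03), DPYSL3 (7.42 ± 0.871), PEG10 (4.78 ± 1.1) and DLL3 (2.82 ± 0.661; SD, n = 3 each), so that of the 10 only UCHL1, STMN1 and TUBB3 were above L1CAM.

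For the 5 called genes, the 2 protein-coding genes with the nearest pattern over the 6 libraries were found by the root-mean-square distance of log2 CPM, each gene centred on its own mean. L1CAM was nearest to GYPC, glycophorin C (distance 0.152), and PLAC8 (0.251), both of which went up by about 4 on the log2 scale. UCHL1 was nearest to RASGEF1A (0.041) and PBX2, a homeobox cofactor (0.0628), DPYSL3 to the histone demethylase gene PHF2 (0.0587) and ADD2, beta-adducin (0.0652), SIAH2 to NFS1, a cysteine desulfurase (0.0324), and VGLL4 (0.0371), and REST to SPEN, a transcriptional corepressor (0.0466), and PCM1, a centriolar satellite protein (0.0919). With 6 libraries these are descriptions, and none was tested.

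**Figure D5:**
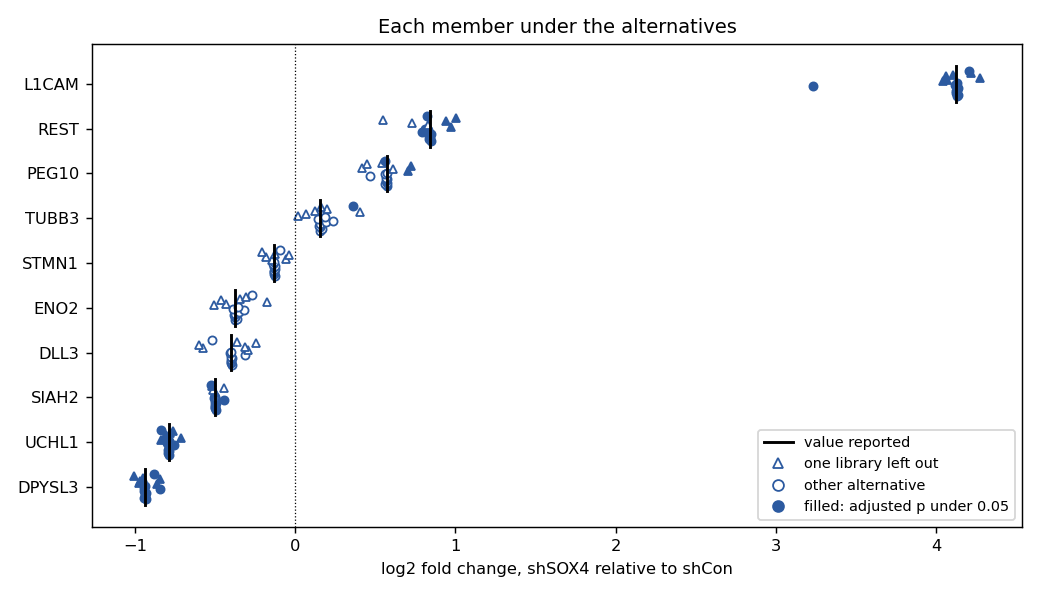
For each gene the black line is the log2 fold change given above and the symbols are the values under up to 16 alternatives (triangles with 1 library left out, circles other settings, filled where the adjusted p was under 0.05). L1CAM, UCHL1 and DPYSL3 were called in all 16, SIAH2 in 10 of 16, REST in 11 of 15, PEG10 in 6 of 16 and TUBB3 in 1 of 16.

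The authors' deposited table gives the same direction for all 10 genes. Its log2 fold changes are 3.95 for L1CAM (adjusted p = 3.35e-93), 0.77 for REST (0.0134), 0.55 for PEG10 (0.0262), -0.48 for SIAH2 (0.0129), -0.76 for UCHL1 (7.59e-06) and -0.90 for DPYSL3 (7.96e-07), so that 6 of the 10 pass there, PEG10 included. The share of all features that pass there was not counted. The DESeq2 fit run here called 2596 features up and 2407 down out of 13527. In the authors' deposited table the values of TUBB3, STMN1, ENO2 and DLL3 are 0.15, -0.12, -0.35 and -0.36 with adjusted p of 0.162 to 0.587.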

How the data were processed

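Gene expression was measured by RNA-seq in 6 DU145 libraries, 3 per group. The authors deposited 1 table with gene-level counts, FPKM values and their own log2 fold changes and adjusted p-values, per the file headers. Columns headed NC were read as shCon and those headed SH as shSOX4, with the replicate numbers of the titles. Named in the submitters' processing notes are the build hg19 and the tools HISAT2, STAR, Bowtie2, deepTools 2.07 and MACS2 2.1.1, with no role stated. Counter, annotation and strand setting: not given in the sources used here. All 13527 features reached 1 CPM in at least 3 libraries, so low genes were already left out.

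The deposited counts were fitted with edgeR 4.0.16 (R 4.3.3; TMM scaling, quasi-likelihood test, group only, Benjamini-Hochberg over all features), after the same code was tested on simulated data. FPKM served only to compare levels between genes. Intervals are 95%. Identifiers of 12386 features matched a current symbol. Alternatives were RLE and total-count scaling, other filters, DESeq2 1.42.0, limma-voom and limma on log2(FPKM + 1) (limma 3.58.1), omission of 1116 unannotated loci, a replicate block, and omission of each library and of shCon 3 with shSOX4 1. The members, lists and alternatives were chosen with earlier results of these data known. Named were the 10 genes, SOX4, up to 4 other genes per list with the smallest adjusted p, every measured gene of 5 families, and the 2 nearest profiles of each called gene among protein-coding genes of 5 CPM or more on average. Counts ran from 31189910 to 43361609 a library, and no libraries of a group agreed within sampling noise (chi-square per degree of freedom 28.7 to 139). Some genes of the lists are counted but not reported here by name.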

Additional observations from a re-analysis of the deposited data

How the results depend on the processing

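L1CAM, UCHL1 and DPYSL3 kept their direction and stayed called under all 16 alternatives. PEG10 passed with RLE scaling (0.58, adjusted p = 0.0493, edgeR), under a filter of 1 CPM in all libraries of a group (0.57, adjusted p = 0.0498, edgeR), with DESeq2 (0.58) and without shCon 3 and shSOX4 1 together (0.56), as did TUBB3 in that last fit (0.36). REST was not called with total-count scaling (0.84). When 1 library was left out, log2 fold changes ran from 0.41 to 0.73 for PEG10, from -0.52 to -0.44 for SIAH2, from 0.55 to 1.00 for REST and from -1.02 to -0.71 for SOX4. The number of the 10 genes that rose was 1 with total-count scaling or limma on log2(FPKM + 1), where REST was under the filter and has no value, 4 without shCon 3 and shSOX4 1, and 1 to 3 when 1 library was left out. The number that fell was 2 or 3 when 1 library was left out, and 3 without both shCon 3 and shSOX4 1. With 1 library left out, features called up numbered 1411 to 2653 and down 1098 to 2313, lowest without shSOX4 2, and other list genes called down numbered 10 to 27. List genes called up numbered 13 with limma on log2(FPKM + 1). The cause of these shifts was not tested. Of 544 counts of single lists under the alternatives, 82 moved by more than 1.5 times.

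Deviations of same-numbered libraries from their group means correlated at -0.517, 0.143 and -0.459. With 3 libraries a group, of which shCon 3 and shSOX4 1 stood apart, these values cannot decide whether the replicate numbers pair the libraries. With the replicate block SIAH2 was -0.50 and not called (adjusted p = 0.148, edgeR), REST 0.81 (0.0464) and PEG10 0.58 (0.106), and 1825 features were up and 1549 down. The planned identity of protein sequences was not run. Depth limits REST most, with 102 to 280 counts a library.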

Other observations

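Epithelial markers moved in both directions beside the neuronal genes. KRT8 rose from 1828 ± 396 to 4603 ± 209 CPM (SD, 3 libraries each; log2 fold change 1.33, adjusted p = 3.98e-05, edgeR) and KRT18, its partner in simple-epithelium filaments, by 1.03 (adjusted p = 0.000406, edgeR). The junction genes CLDN4 and CDH1 fell by 1.58 (adjusted p = 0.000131, edgeR) and 1.28 (adjusted p = 0.0029, edgeR), and the adhesion gene EPCAM by 0.83 (adjusted p = 0.0279, edgeR), a call lost without shCon 2 (adjusted p = 0.179) or shSOX4 2 (0.0844, edgeR). KRT19 and CLDN7 had values of -0.39 (adjusted p = 0.128, edgeR) and -0.02 (adjusted p = 0.957, edgeR).

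Among markers of other cell types, GFAP, the astrocyte filament, fell from 15.6 ± 0.954 to 6.29 ± 0.621 CPM (SD, 3 libraries each; adjusted p = 0.00032, edgeR) and MBP, myelin basic protein, fell by 1.07 (adjusted p = 0.00393, edgeR). CD68, a lysosomal protein abundant in macrophages, fell by 1.17 (adjusted p = 0.000171, edgeR), while CD14, the other leukocyte marker with a row, had a value of 0.41 (adjusted p = 0.449, edgeR). The fibroblast markers LUM, PDGFRB and COL1A1 and the endothelial cadherin CDH5 rose from low levels, LUM with 10 counts over the 3 shCon libraries and CDH5 with 87, to 2.87 ± 0.753, 4.20 ± 0.4, 6.18 ± 2.26 and 5.88 ± 1.03 CPM in shSOX4 (SD, 3 libraries each). LUM and CDH5 were in the table through shSOX4 alone, so they could have entered only as rises. PDGFRB, at 0.416, 1.05 and 0.612 CPM in shCon 1, 2 and 3, also reached 1 CPM in 3 libraries only with those of shSOX4.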
